A study of Mus musculus with 24 samples.

Results

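The 33 genes described here supply a cell with amino acids and charge its tRNAs, and most are textbook targets of the transcription factor ATF4. They were picked by gene symbol: 33 symbols were looked up among the 53465 gene identifiers of the count table, and all 33 were found. They comprise 3 genes of serine synthesis (Phgdh, Psat1, Psph), 4 of the folate cycle that takes carbon units from serine (Shmt1, Shmt2, Mthfd2, Mthfd1l) and 3 of asparagine and proline synthesis (Asns, Aldh18a1, Pycr1). A further 7 encode amino acid transporters (Slc7a5, Slc3a2, Slc7a11, Slc1a5, Slc1a4, Slc38a1, Slc38a2), 4 transcription factors (Atf4, Atf5, Ddit3, Cebpg) and 5 regulators of the stress response or of mTORC1 (Trib3, Chac1, Ddit4, Sesn2, Gatsl3). The last 7 charge or export tRNAs (Nars, Sars, Wars, Gars, Aars, Eprs, Xpot).

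RNA was measured in natural killer (NK) cells, cytotoxic lymphocytes of the innate immune system, from flank tumours grown under the skin for 14 days from B16F10, a mouse melanoma line. The hosts in every group were female wild-type B6 mice with no added allele, and no age or treatment is given in the labels, which enter the cell type as melanoma. Each of 24 libraries held amplified cDNA of 100 sorted cells. The cells were sorted as CD11b+ or CD27+ and as CD69- or CD69+, giving 4 populations of 6 libraries. CD11b is an integrin chain of mature NK cells, CD27 a receptor that marks earlier stages, and CD69 a lectin that appears soon after activation. The sample titles carry a number from M1 to M6 that recurs in all 4 populations. The labels do not say what it marks, and it was used as a replicate number only. Nothing in the labels says whether the 6 libraries of a population came from separate mice, so p-values measure the spread between these samples, which may in part be technical.

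ATF4 is made when a kinase of the integrated stress response phosphorylates the initiation factor eIF2, which lowers protein synthesis in general while favouring translation of the Atf4 mRNA. The kinases sense uncharged tRNA, misfolded protein in the endoplasmic reticulum, double-stranded RNA or haem shortage. ATF4 pairs with C/EBP factors on composite DNA elements and raises genes for amino acid synthesis, uptake and tRNA charging, and in activated lymphocytes MYC and mTORC1 act on many of the same genes. Because ATF4 is controlled at translation, the level of its mRNA is not a readout of its activity.

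Promoters were read from RefSeq (build GRCm38.p6), where 28 of the 33 genes had an entry, for the window from 250 bases before to 50 after the transcription start. The letters TGATGNAA, the core of the ATF4 and C/EBP composite element, were searched on both strands, with no other motif searched. They occurred in 8 of the 28 members (28.6%), against 4.51% of the 27025 genes with an entry (3.97% of 32851 windows). The 8 were Aars, Asns, Chac1, Gars, Pycr1, Slc1a4, Slc7a11 and Trib3. The 250 bases before the start are given here for Asns, Chac1 and Pycr1, which were near 0 outside a few libraries, for Gars, which was high in every library, and for Gatsl3, the gene with the largest difference between populations at a level seen in all libraries. Capitals mark the match, which begins 23 bases before the start in Asns (chr6:7693210-7693459, minus strand), 193 in Chac1 (chr2:119350992-119351241, plus strand), 103 in Pycr1 (chr11:120643749-120643998, minus strand) and 30 in Gars (chr6:55037751-55038000, plus strand). The window of Gatsl3 (chr11:4217975-4218224, plus strand), which RefSeq lists as Castor1, held no match, and a match or its absence describes these letters alone.
Asns: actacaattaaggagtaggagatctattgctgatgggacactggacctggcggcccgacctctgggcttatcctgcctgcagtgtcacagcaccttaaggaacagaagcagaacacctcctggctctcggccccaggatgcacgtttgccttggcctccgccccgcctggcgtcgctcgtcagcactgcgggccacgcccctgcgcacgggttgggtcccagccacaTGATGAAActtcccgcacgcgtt
Chac1: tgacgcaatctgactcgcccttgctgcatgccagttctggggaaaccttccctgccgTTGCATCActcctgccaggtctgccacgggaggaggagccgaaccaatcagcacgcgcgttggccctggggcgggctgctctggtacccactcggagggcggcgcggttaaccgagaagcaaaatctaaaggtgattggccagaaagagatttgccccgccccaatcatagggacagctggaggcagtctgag
Pycr1: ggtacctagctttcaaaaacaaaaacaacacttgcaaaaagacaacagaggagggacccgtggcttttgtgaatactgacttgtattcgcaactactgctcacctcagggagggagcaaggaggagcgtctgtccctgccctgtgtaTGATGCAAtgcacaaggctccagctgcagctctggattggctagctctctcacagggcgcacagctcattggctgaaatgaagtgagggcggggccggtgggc
Gars: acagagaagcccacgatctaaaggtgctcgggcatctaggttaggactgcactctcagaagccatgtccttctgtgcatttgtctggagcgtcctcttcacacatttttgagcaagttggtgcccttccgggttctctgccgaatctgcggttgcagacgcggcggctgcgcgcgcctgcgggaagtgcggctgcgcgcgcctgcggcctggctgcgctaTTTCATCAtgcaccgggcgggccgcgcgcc
Gatsl3: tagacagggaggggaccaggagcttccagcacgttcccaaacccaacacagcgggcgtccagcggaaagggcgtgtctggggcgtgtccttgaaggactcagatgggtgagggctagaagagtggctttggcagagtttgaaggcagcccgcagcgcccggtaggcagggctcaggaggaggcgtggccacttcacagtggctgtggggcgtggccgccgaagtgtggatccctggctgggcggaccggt

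Total counts per library ran from 1213914 to 2671533, so that 3 counts, the limit that a count of 0 allows, correspond to 1.12 to 2.47 counts per 1000000 (CPM) of the raw total. Levels of genes are given as CPM scaled by TMM. All 10 NK markers were present in every population. Their summed level moved with every CD27+ against CD11b+ comparison, since it was 28422 to 44502 CPM in the CD11b+ libraries and 10188 to 17959 CPM in the CD27+ libraries, without overlap. Its part in those results was not tested. Marker sums of other cell types differed between populations. The sum of 8 fibroblast genes was 258 to 11001 CPM in the CD27+CD69- libraries, 232 CPM in CD27+CD69+ replicate 6 and at most 16.0 CPM in every other library, and all 8 were at 0 in CD11b+CD69+. The sum of 8 melanoma genes was 5957, 304 and 211 CPM in CD27+CD69- replicates 6, 4 and 5, and between 0 and 66.0 CPM in all other libraries. Tyr, Tyrp1, Mitf, Sox10 and Slc45a2 were at 0 in CD11b+CD69-, Pmel and Sox10 in CD11b+CD69+, and Tyr in CD27+CD69+. The sum of 10 T cell genes was 872 to 1222 CPM in CD11b+CD69- and 1148 to 1508 CPM in CD11b+CD69+. It was 1052 to 2694 CPM in CD27+CD69- and 2155 to 3468 CPM in CD27+CD69+. Of these genes, Cd4 and Cd8b1 were at 0 in CD11b+CD69-, Cd8a in CD11b+CD69+, none in CD27+CD69- and Cd4 in CD27+CD69+. Whether this RNA came from T cells or from the sorted NK cells was not tested.

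The 33 genes together took a like share of the RNA in every population. Their summed level was 3399 ± 326 CPM in CD11b+CD69-, 3551 ± 446 CPM in CD11b+CD69+, 3337 ± 313 CPM in CD27+CD69- and 3363 ± 126 CPM in CD27+CD69+ (SD, n = 6 each), and the ranges overlapped. Of the 33, 27 passed the filter on low counts and were tested, and 24 had a mean of 10 CPM or more. Pycr1, Slc7a11, Slc1a4, Atf5, Chac1 and Ddit4 did not pass the filter. Per kilobase of exon, Atf4 (175 CPM per kb) and Slc3a2 (156) had the highest levels, followed by Nars (68.2), Gars (62.8), Sars (56.9), Slc1a5 (51.9) and Ddit3 (51.1). At the low end stood Slc7a5 (1.63) and Slc7a11 (0.00705), which had counts in 3 of 24 libraries. In bulk libraries such as these, fewer cells that express a gene and less RNA per cell cannot be told apart.

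**Figure D1:**
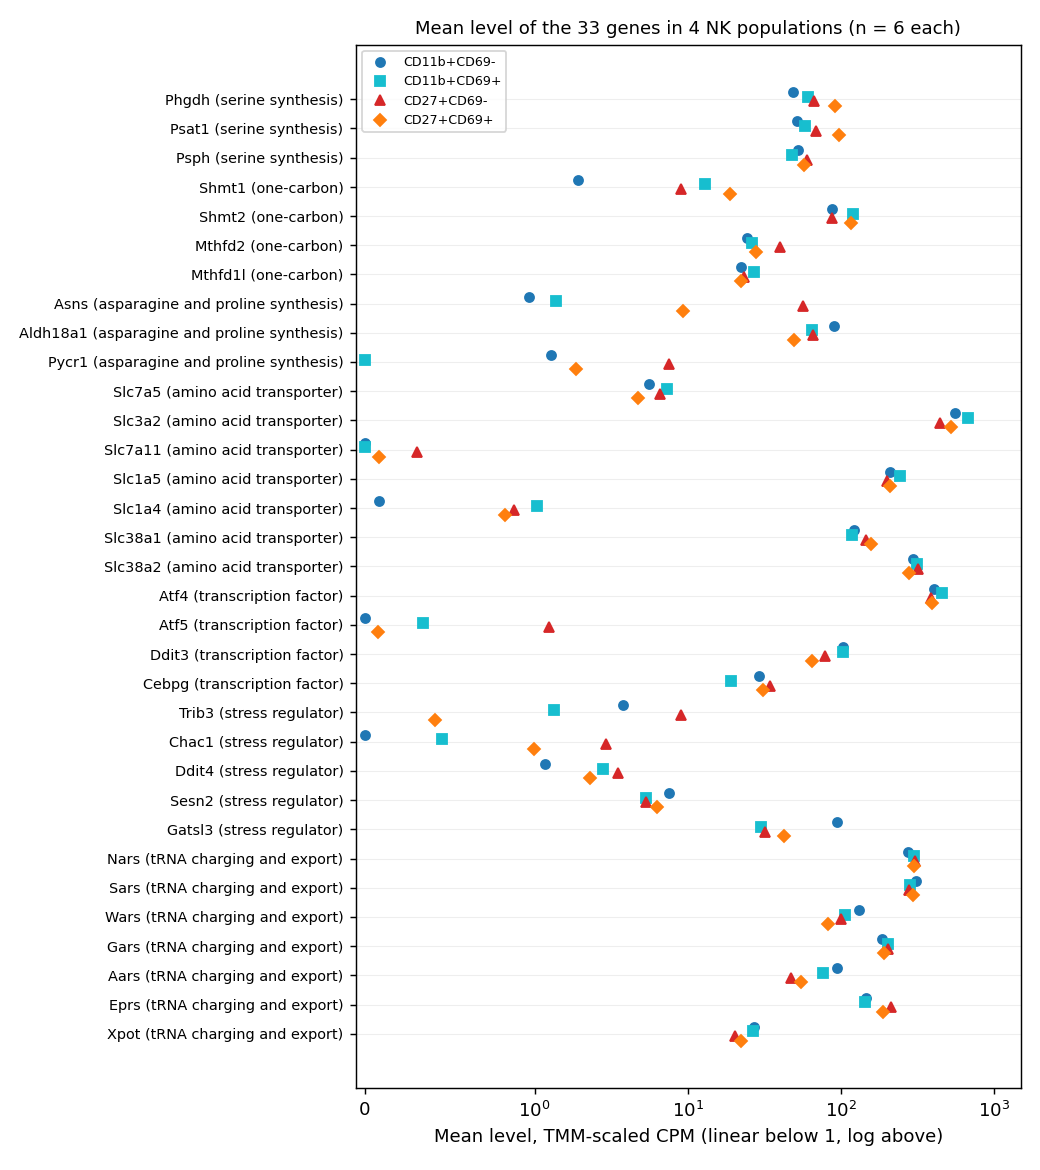
Mean level of each of the 33 genes in the 4 NK populations, as TMM-scaled CPM on an axis that is linear below 1 and logarithmic above, with 1 symbol per population (n = 6 each). For most genes the 4 symbols lie close together, while Gatsl3 stands apart in CD11b+CD69- at 94.6 CPM and Asns in CD27+CD69- at 57.2 CPM.

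Gatsl3 set CD11b+CD69- cells apart, and few other members differed between populations. In the test for any difference among the 4 populations, 2 of 27 members passed (7.41%), Gatsl3 and Asns, against 14.1% of all 10536 genes tested. With 1 library left out, 1 to 4 members passed. Asns was lost without CD27+CD69- replicate 6 (adjusted p = 0.0765), with DESeq2 (0.179), limma-voom (0.224), the replicate number as a block (0.13) and marker covariates (0.954), and without the 3 libraries richest in melanoma RNA (0.531). The 4 members that DESeq2 called were Aldh18a1, Eprs, Gatsl3 and Slc3a2. CD69+ against CD69- cells gave 1 lower member, Gatsl3, among CD11b+ cells, where 2.74% of all genes passed and 1.10% were lower. Among CD27+ cells no member passed edgeR's test (1.85% of all genes), with 1 at an unadjusted p below 0.05 and 0 by DESeq2 or limma-voom. The CD69 difference averaged over CD11b+ and CD27+ cells also had 0 members (3.94% of all genes), with 6 at an unadjusted p below 0.05, 0 by DESeq2 and 1 by limma-voom. The median log2 difference of the 27 members was 0.08 in CD11b+ and -0.02 in CD27+ cells, beside 0.00 and -0.01 over all genes.

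CD27+ against CD11b+ cells gave more calls, as it did across the transcriptome. Among CD69- cells 2 members passed, Asns higher and Gatsl3 lower in CD27+ cells, where 12.4% of all genes passed, 7.46% higher and 4.92% lower. Among CD69+ cells 0 members passed by edgeR, DESeq2 or limma-voom (1.90% of all genes by edgeR), with 6 at an unadjusted p below 0.05. Averaged over CD69- and CD69+ cells, 5 of 27 passed (18.5%) against 13.3% of all genes, 7.95% higher and 5.38% lower: Asns, Eprs and Slc38a1 were higher and Ddit3 and Slc3a2 lower in CD27+ cells. With 1 library left out that count ran from 2 to 7, and it was 2 without CD27+CD69+ replicate 1 or 2, CD11b+CD69- replicate 2 or CD27+CD69- replicate 6. Those fits kept Asns and Eprs. When the 3 CD27+CD69- libraries richest in melanoma RNA were left out the count was again 2, but of other members, Ddit3 and Slc38a1. With fibroblast and melanoma marker sums as covariates the count of members was 0, and calls over all genes dropped from 1405 to 138. The fibroblast sum was high almost only in CD27+CD69- libraries, so this fit cannot separate the covariate from that population. A call lost under it decides nothing about the RNA of other cells. The median member difference was 0.10 in CD69- and -0.05 in CD69+ cells, beside 0.05 and 0.02 over all genes. Between CD27+ and CD11b+ cells the size of the CD69 difference was unequal for 1 member, Gatsl3, and for 0.579% of all genes (0.237% in the direction of Gatsl3).

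**Figure D2:**
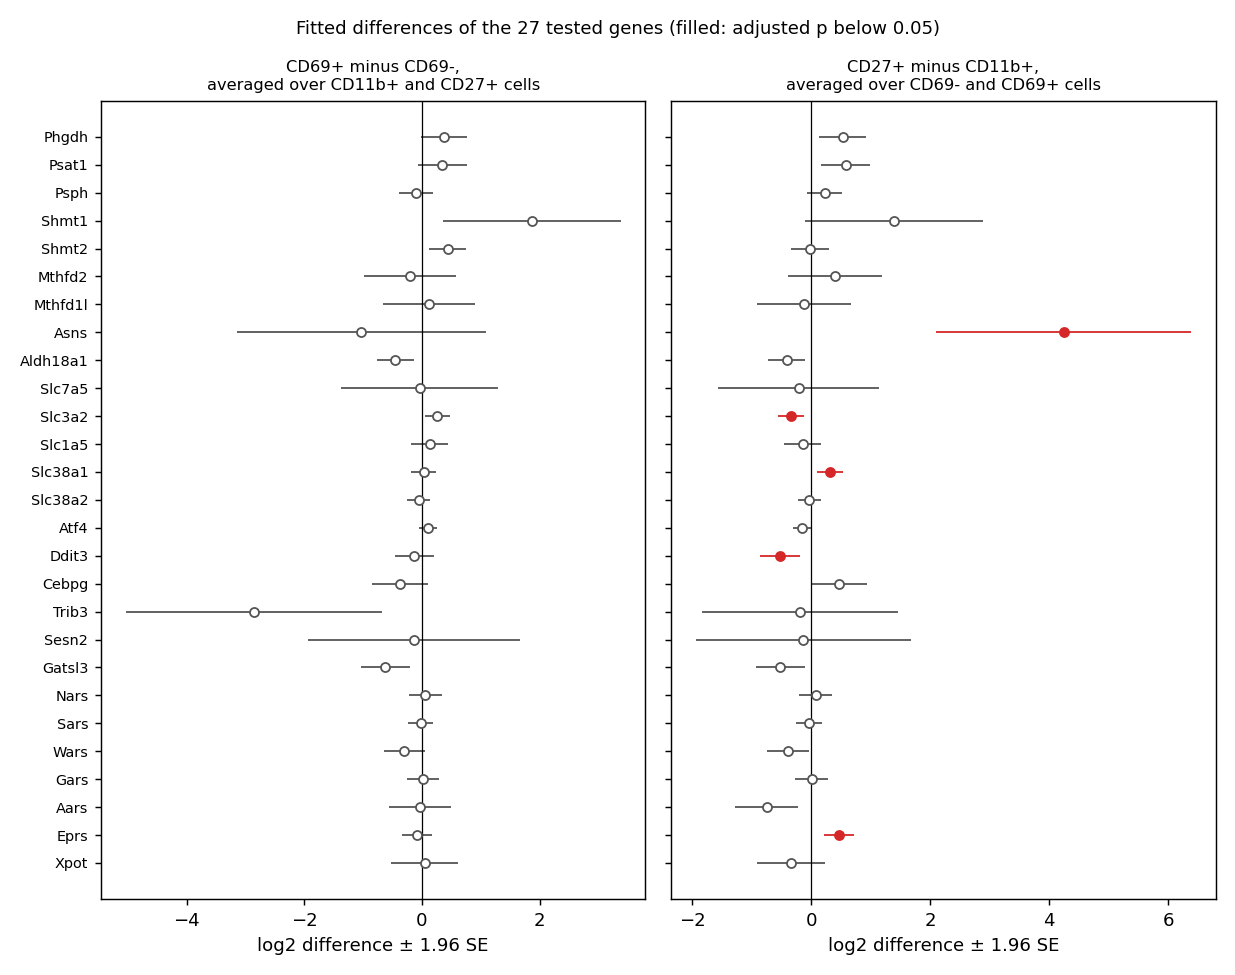
Fitted log2 differences of the 27 tested genes with approximate 95% intervals, for CD69+ minus CD69- (left) and CD27+ minus CD11b+ (right), each averaged over the other marker. Filled points, which passed at an adjusted p below 0.05, appear at the right only, for Asns, Eprs, Slc38a1, Ddit3 and Slc3a2, and most intervals include 0.

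Atf4 mRNA was abundant and nearly level. It had the lowest coefficient of variation of the 33 genes over the 24 libraries, 13.3%. The lowest, median and highest levels were 349, 428 and 439 CPM in CD11b+CD69-, 405, 440 and 547 in CD11b+CD69+, 302, 404 and 429 in CD27+CD69- and 292, 405 and 448 in CD27+CD69+. The groups overlapped throughout. Fitted log2 differences of Atf4 were 0.17 (SE 0.11) for CD69 in CD11b+ cells, 0.02 (SE 0.11) for CD69 in CD27+ cells, and -0.15 (SE 0.08) for CD27+ minus CD11b+ averaged (edgeR adjusted p = 0.561, 0.986 and 0.256). The last has an approximate 95% interval from -0.30 to 0.01.

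Ddit3 encodes CHOP, a stress-induced C/EBP factor whose gene ATF4 activates. Its levels ran from 68.9 through a median of 105 to 132 CPM in CD11b+CD69- and from 74.6 through 100 to 143 in CD11b+CD69+. In CD27+ cells they ran from 45.5 through 72.6 to 128 CPM (CD69-) and from 32.7 through 65.7 to 93.0 (CD69+). The CD27+ libraries lay lower, with overlap. Ddit3 was 1.44-fold lower in CD27+ than in CD11b+ cells averaged over CD69 (log2 -0.52, SE 0.17, edgeR adjusted p = 0.0385). The call was lost with counts thinned to the smallest library (adjusted p = 0.0945) and with the marker covariates (log2 -0.4, adjusted p = 0.888). It passed in 11 of 24 fits with 1 library left out. It was lost, with an adjusted p up to 0.0755, without any of CD11b+CD69- replicates 2, 4 and 6, CD11b+CD69+ replicates 3, 5 and 6, CD27+CD69- replicates 2, 3, 4 and 6 and CD27+CD69+ replicates 1, 2 and 6. Exons of Ddit3 (chr10:127290774-127296288, plus strand, GENCODE M21) overlap those of Mars and Gm4189 on the other strand and of a further Ddit3 entry on the same strand. In an unstranded library the reads of these genes cannot be told apart there. Cebpg, a partner of ATF4, averaged 29.3 ± 12.8, 19.3 ± 9.42, 34.7 ± 10.6 and 31.3 ± 9.06 CPM (SD, n = 6), given here and in later sentences as CD69- and CD69+ of the CD11b+ cells and then of the CD27+ cells, and passed no test. Atf5 was at or below 3.30 CPM in every library, and at 0 in all 6 CD11b+CD69- libraries. Exons of Cebpg overlap those of Gm44836 on the same strand and of Gm45095 on the other. Those of Atf5 overlap exons of Il4i1 and Nup62 on the other strand.

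The serine synthesis genes had their highest means in CD27+ cells, without passing the test. Phgdh, the dehydrogenase that diverts a glycolytic intermediate into serine synthesis, had lowest, median and highest levels of 25.4, 44.6 and 75.2 CPM in CD11b+CD69- and 23.9, 62.1 and 102 in CD11b+CD69+. In CD27+CD69- they were 48.7, 63.2 and 89.1 CPM and in CD27+CD69+ 60.7, 97.4 and 113. For CD27+ minus CD11b+ averaged, the log2 difference of Phgdh was 0.53 (SE 0.20, edgeR adjusted p = 0.0772). Without CD11b+CD69+ replicate 2 or CD11b+CD69- replicate 3 it passed (adjusted p = 0.0274 and 0.039), as it did with limma-voom (0.0361). Psat1, the transaminase of the next step, averaged 51.7 ± 22.1, 58.8 ± 17.0, 69.1 ± 31.6 and 98.2 ± 30.1 CPM, a log2 difference of 0.58 (SE 0.21, adjusted p = 0.0766). It passed with DESeq2 (0.0497) and without CD27+CD69- replicate 2 (0.0456), CD11b+CD69- replicate 3 (0.0317) or CD11b+CD69+ replicate 4 (0.0435), and with the marker covariates its sign turned (-0.15, adjusted p = 0.986). Psph, the phosphatase that completes the route, averaged 47.9 to 60.2 CPM in the 4 populations, with log2 0.23 (SE 0.15) in the same comparison. Its exons overlap those of Cct6a on the other strand.

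Of the folate genes, Shmt1 was nearly absent from CD11b+CD69- cells. Shmt1, the cytosolic serine hydroxymethyltransferase, was at 0 in 4 of those libraries, at 0.382 CPM in replicate 4 and at 11.1 CPM in replicate 3. Its lowest, median and highest levels were 0, 15.6 and 23.2 CPM in CD11b+CD69+, 0, 6.31 and 26.5 in CD27+CD69- and 4.99, 14.3 and 46.7 in CD27+CD69+. The ranges overlapped through replicate 3 and through the libraries at 0. With all libraries no test passed: log2 2.72 (SE 1.13, edgeR adjusted p = 0.249) for CD69 in CD11b+ cells and 2.23 (SE 1.12, adjusted p = 0.229) for CD27+ minus CD11b+ in CD69- cells. That 1 library decided the result. Without CD11b+CD69- replicate 3, the adjusted p of Shmt1 was 0.00434 and 0.0022 in these comparisons and 0.00261 for any difference. The exons of Shmt1 (chr11:60788104-60811718, minus strand) overlap those of Smcr8 on the other strand.

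Shmt2, the mitochondrial enzyme of the same reaction, averaged 87.5 ± 24.2, 121 ± 43.8, 88.0 ± 21.1 and 117 ± 22.4 CPM, so that both CD69+ means were above both CD69- means. The log2 difference averaged over CD11b+ and CD27+ cells was 0.44 (SE 0.16), with an unadjusted p of 0.0103 and an edgeR adjusted p of 0.143. Exons of Shmt2 overlap those of Ndufa4l2 on the other strand. Mthfd2, the mitochondrial methylene-tetrahydrofolate dehydrogenase, ran from 3.19 to 91.4 CPM over the 24 libraries and Mthfd1l, the mitochondrial formate-releasing synthetase, from 1.15 to 64.5 CPM. Neither passed any test, and their SEs of 0.57 in each comparison of 2 populations leave wide intervals.

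**Figure D3:**
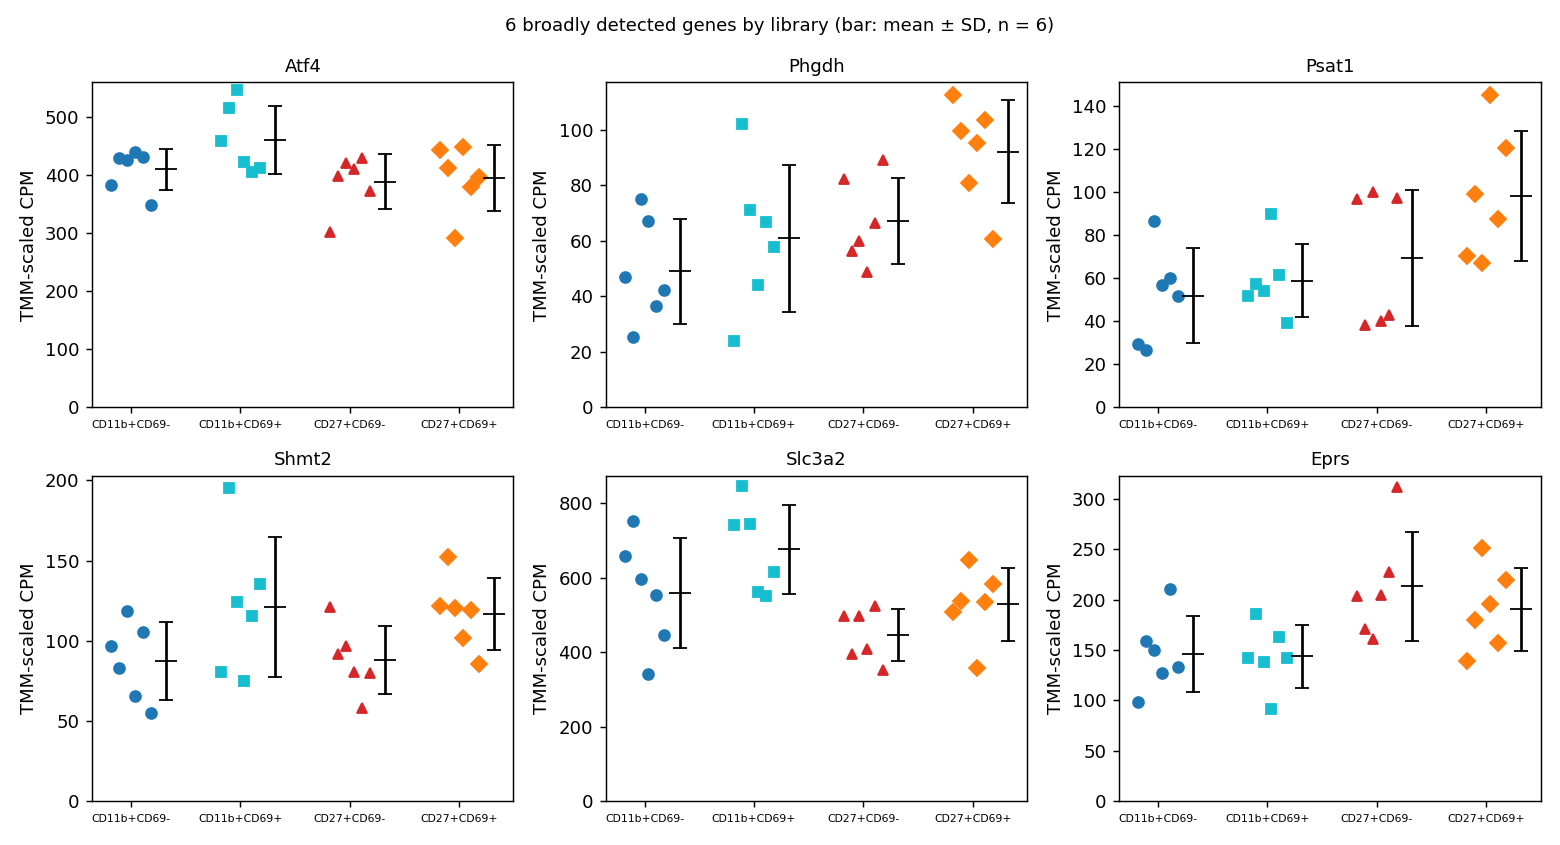
TMM-scaled CPM of Atf4, Phgdh, Psat1, Shmt2, Slc3a2 and Eprs in each library, with mean and SD beside each population (n = 6 each). Atf4 is nearly flat at group means of 389 to 460 CPM, and the populations overlap in all 6 panels.

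Asparagine synthetase, Asns, was detected mainly in CD27+CD69- cells and there mainly in 3 libraries. Its levels were 4.4, 6.8, 0, 106.9, 40.2 and 184.7 CPM in CD27+CD69- replicates 1 to 6. In CD27+CD69+ they were 0, 8.9, 0, 9.9, 0 and 37.6 CPM. CD11b+CD69- had 5.78 CPM in replicate 3 and 0 in the others, and CD11b+CD69+ had 7.37 and 0.912 CPM in replicates 1 and 3 and 0 in the others. Every population thus had a library at 0, and all of them overlapped. By edgeR Asns was higher in CD27+ than CD11b+ cells among CD69- cells (log2 5.80, SE 1.63, adjusted p = 0.017) and averaged over CD69 (log2 4.24, SE 1.09, adjusted p = 0.0083). Without CD11b+CD69- replicate 3, the library of that population with Asns counts, these values were 9.91 and 6.30, so that their size rests on very few counts in the lower group. Asns lies at chr6:7675169-7693254, minus strand (GRCm38).

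The 3 libraries with the most Asns, CD27+CD69- replicates 6, 4 and 5, were those with the most melanoma marker RNA, 5957, 304 and 211 CPM. The highest Asns library of CD27+CD69+, replicate 6, had the highest melanoma sum of its population (66.0 CPM), and the highest of CD11b+CD69+, replicate 1, likewise (28.2 CPM). In CD11b+CD69- the order differed: replicate 3, the library with Asns, had a melanoma sum of 0.445 CPM, and replicate 6, with the highest sum of 4.10 CPM, had no Asns. Without the 3 CD27+CD69- libraries, an alternative chosen after seeing the data, the log2 difference among CD69- cells was 1.91 (adjusted p = 0.719). Without replicate 6 alone it was 4.95 (adjusted p = 0.0667). The call was also lost with DESeq2 (adjusted p = 0.0591), limma-voom (0.101), no filter on low counts (0.0501), the replicate number as a block (0.0804) and the marker covariates (log2 0.17, 0.998). The averaged call was lost without the 3 libraries (2.31, adjusted p = 0.337) and with limma-voom (3.23, 0.143), the block (4.10, 0.0998) and the covariates (0.87, 0.965). Fibroblast sums in replicates 4, 5 and 6 were 3367, 258 and 7404 CPM, against 2981, 11001 and 8304 CPM in replicates 1, 2 and 3. CD27+CD69- replicates 6 and 4 also had the lowest total counts of the 24 libraries, 1213914 and 1450554. Their mitochondrial shares of counts, 1.572% and 1.506%, were the highest, while replicate 5 had 2242850 counts and 0.977%. The part of RNA from other cells, depth or RNA quality in the Asns difference was not tested.

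Among the members with a mean below 10 CPM, Pycr1, Trib3, Chac1 and Ddit4 had their highest value in CD27+CD69- replicate 4 or 6. Slc7a5, Sesn2 and Slc1a4 had theirs in a CD11b+ library. Atf5 peaked at 3.30 CPM in CD27+CD69- replicate 6 and Slc7a11 at 1.35 CPM in CD27+CD69- replicate 4. In these libraries 3 counts are 2.47 and 2.07 CPM of the raw total, so both values rest on few reads. Besides their melanoma RNA, replicates 4 and 6 had the lowest total counts and the highest mitochondrial shares of all libraries. The part of these traits was not tested. Slc7a5 was highest in CD11b+CD69+ replicate 2 (19.4 CPM), Sesn2 in CD11b+CD69- replicate 4 (19.9 CPM) and Slc1a4 in CD11b+CD69+ replicate 6 (6.21 CPM). Pycr1, which makes proline from pyrroline carboxylate, was at 13.7, 8.8 and 23.1 CPM in CD27+CD69- replicates 3, 4 and 6, at 7.64 CPM in CD11b+CD69- replicate 4, at 11.1 CPM in CD27+CD69+ replicate 6 and at 0 in the other 19 libraries. Trib3, a pseudokinase that ATF4 and CHOP induce, was at 27.8, 11.1 and 14.8 CPM in CD27+CD69- replicates 4, 5 and 6 and at most 8.40 CPM elsewhere. Chac1, a glutathione-degrading enzyme, reached 13.5 and 4.12 CPM in CD27+CD69- replicates 4 and 6 and 4.33 CPM in CD27+CD69+ replicate 6, and was at 0 in 19 libraries. Ddit4, an mTORC1 inhibitor, was highest in CD27+CD69- replicate 6, at 14.0 CPM. Of Pycr1, Trib3, Chac1 and Ddit4, Trib3 alone was tested, and its CD69 difference in CD27+ cells was -4.28 on the log2 scale (SE 1.67, edgeR adjusted p = 0.257). Aldh18a1, which makes the proline precursor and is no low gene, averaged 90.3 ± 34.2, 65.0 ± 14.1, 66.5 ± 18.8 and 49.7 ± 8.29 CPM. Its adjusted p for any difference was 0.063 with edgeR and 0.041 with DESeq2, and 0.0265 to 0.0398 without CD11b+CD69- replicate 1, 5 or 6 or CD27+CD69- replicate 1.

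**Figure D4:**
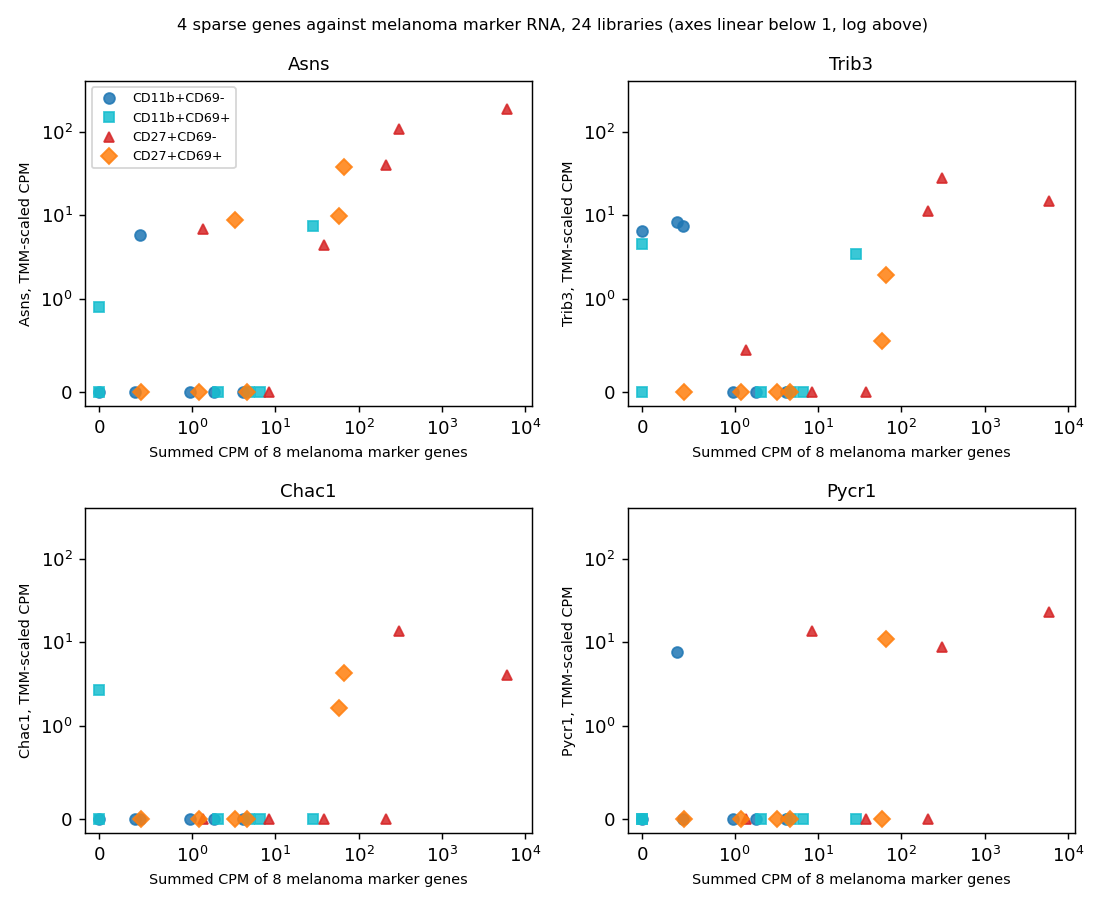
Level of Asns, Trib3, Chac1 and Pycr1 against the summed CPM of 8 melanoma marker genes in each of the 24 libraries, on axes that are linear below 1 and logarithmic above. The highest points of Asns and Pycr1 belong to CD27+CD69- replicate 6 (melanoma sum 5957 CPM) and those of Trib3 and Chac1 to replicate 4 (304 CPM).

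Among the transporters, the heavy chain Slc3a2 was lower and the glutamine carrier Slc38a1 higher in CD27+ cells, by small amounts. Slc3a2, which pairs with Slc7a5 and other light chains, had lowest, median and highest levels of 341, 574 and 752 CPM in CD11b+CD69- and 549, 678 and 846 in CD11b+CD69+. They were 353, 453 and 525 CPM in CD27+CD69- and 357, 536 and 647 in CD27+CD69+. At either CD69 state all 6 CD27+ libraries lay below the CD11b+ median, with overlap. Slc3a2 was 1.27-fold lower in CD27+ cells averaged over CD69 (log2 -0.34, SE 0.11, edgeR adjusted p = 0.0459). It passed in 10 of 24 fits with 1 library left out and was lost, with an adjusted p up to 0.0943, without CD11b+CD69- replicates 1, 2, 3 or 5, CD11b+CD69+ replicates 1, 2 or 3, CD27+CD69- replicates 2, 4 or 6, or CD27+CD69+ replicates 1, 2, 4 or 5. The marker covariates moved the difference to -0.01 (adjusted p = 0.998). The call was also lost with DESeq2 size factors (adjusted p = 0.0556) and limma-voom (0.0806). Without CD27+CD69- replicates 4, 5 and 6 the difference was -0.31 (adjusted p = 0.151). Slc7a5, the leucine carrier that Slc3a2 brings to the surface, had a mean of 6.05 CPM and an SE of 0.97 to 0.98 in each comparison of 2 populations, so that its intervals are wide.

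Slc38a1 ran from 96.4 through a median of 123 to 164 CPM in CD11b+CD69- and from 96.5 through 121 to 138 in CD11b+CD69+. In CD27+ cells it ran from 122 through 145 to 171 CPM (CD69-) and from 127 through 155 to 217 (CD69+). All 6 CD27+CD69+ libraries lay above the CD11b+CD69+ median, with overlap. The difference averaged over CD69 was 0.32 on the log2 scale (SE 0.11, edgeR adjusted p = 0.0429). The call was lost with no filter on low counts (adjusted p = 0.0813), counts thinned to the smallest library (0.126) and the marker covariates (log2 0.45, 0.561). It passed in 8 of 24 fits with 1 library left out. The adjusted p reached at most 0.0873 in those that lost it, without CD11b+CD69- replicates 2, 4, 5 or 6, CD11b+CD69+ replicates 1, 2, 5 or 6, CD27+CD69- replicates 1, 2, 3 or 6, or CD27+CD69+ replicates 1, 2, 3 or 6. Slc1a5, another glutamine carrier, averaged 202 to 244 CPM and Slc38a2, a carrier of small neutral amino acids, 281 to 319 CPM across the 4 populations, and neither passed a test. Slc1a4 and Slc7a11, the cystine carrier, were at 0 in 19 and 21 of 24 libraries.

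The tRNA genes were mostly level, and Eprs alone passed a test. Eprs, the bifunctional glutamyl-prolyl synthetase, had lowest, median and highest levels of 98.7, 142 and 211 CPM in CD11b+CD69- and 91.2, 142 and 186 in CD11b+CD69+. They were 161, 204 and 312 CPM in CD27+CD69- and 139, 188 and 252 in CD27+CD69+. Eprs was higher in CD27+ cells averaged over CD69 (log2 0.47, SE 0.13, edgeR adjusted p = 0.0162), in all 24 fits with 1 library left out. The highest library, CD27+CD69- replicate 6, was also the richest in melanoma RNA. Without CD27+CD69- replicates 4, 5 and 6 the difference was 0.35 (adjusted p = 0.139), and with the marker covariates 0.31 (adjusted p = 0.876). The part of other cells' RNA in it was not tested.

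Nars, Sars and Gars averaged 276 to 308, 279 to 311 and 186 to 204 CPM, and no fitted difference of these 3 between 2 populations exceeded 0.16 on the log2 scale in size. Their promoters differ in the motif search, since Gars holds a match, Sars none, and Nars had no entry. Wars averaged 132 ± 31.3, 107 ± 33.6, 101 ± 31.9 and 82.7 ± 34.5 CPM, and its log2 difference for CD27+ minus CD11b+ averaged was -0.38 (SE 0.18, edgeR adjusted p = 0.198). Aars averaged 94.1 ± 52.7, 77.1 ± 33.2, 47.3 ± 28.9 and 55.1 ± 11.3 CPM, with -0.74 (SE 0.27, adjusted p = 0.0739). Its exons overlap those of Exosc6 on the same strand and of Gm24103 on the other. Aars passed without CD27+CD69- replicate 1 (0.0266), CD11b+CD69- replicate 6 (0.0425) or CD11b+CD69+ replicate 6 (0.0348). Eprs and Aars thus had opposite signs. Xpot, the tRNA exporter, averaged 20.3 to 27.1 CPM and passed no test.

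Gatsl3, an arginine sensor that restrains mTORC1 when arginine is scarce and is now named Castor1, was about 3-fold higher in CD11b+CD69- cells than in either neighbouring population. Its levels in CD11b+CD69- replicates 1 to 6 were 85.9, 116.7, 100.1, 103.1, 86.1 and 75.9 CPM. In CD11b+CD69+ they were 9.54, 36.6, 38.7, 29.3, 47.0 and 18.6 CPM. In CD27+CD69- they were 24.2, 32.3, 39.2, 24.4, 35.5 and 37.1 CPM, and in CD27+CD69+ 61.7, 37.4, 36.6, 45.7, 55.8 and 19.3 CPM. The lowest CD11b+CD69- library lay above the highest library of each other population, and the other 3 populations overlapped one another. Of all genes tested, 3.19% did not overlap between CD69- and CD69+ of CD11b+ cells, and 6.62% between CD11b+ and CD27+ of CD69- cells.

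Among CD11b+ cells Gatsl3 was 3.16-fold lower in CD69+ than CD69- cells (log2 -1.66, SE 0.30, edgeR adjusted p = 0.00119), and it passed in all 11 other settings and all 24 fits with 1 library left out. Among CD69- cells it was 2.94-fold lower in CD27+ than CD11b+ cells (log2 -1.56, SE 0.30, adjusted p = 0.000631), with the call lost only under the marker covariates (-0.52, adjusted p = 0.995). Both comparisons share the CD11b+CD69- libraries. In CD27+ cells the CD69 difference was 0.41 (SE 0.30, adjusted p = 0.736), and among CD69+ cells the CD27+ minus CD11b+ difference was 0.51 (SE 0.29, adjusted p = 0.569). The CD69 difference in CD27+ cells exceeded that in CD11b+ cells by 2.07 (SE 0.42, adjusted p = 0.0153). Without CD27+CD69- replicates 4, 5 and 6 that value was 2.08 (adjusted p = 0.0753), and with the marker covariates 1.21 (adjusted p = 1.0). Fibroblast genes summed to at most 8.02 CPM and melanoma genes to at most 28.2 CPM in the 12 CD11b+ libraries. Gatsl3 lies at chr11:4218225-4222409, plus strand, and no exon of another gene overlaps it. Sesn2, a leucine sensor of the same pathway, was at a mean of 6.14 CPM and at 0 in 7 libraries, and passed no test.

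**Figure D5:**
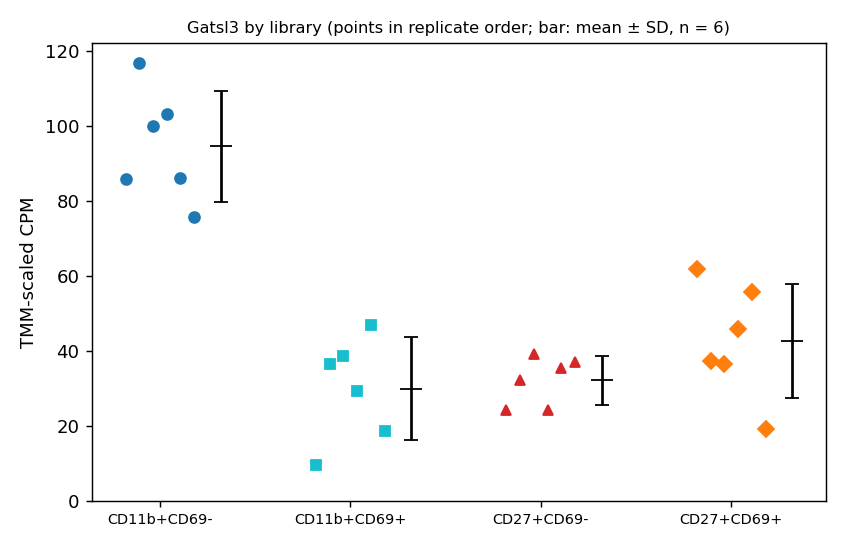
TMM-scaled CPM of Gatsl3 in each library, with mean and SD beside each population (n = 6 each). The 6 CD11b+CD69- libraries sit between 75.9 and 117 CPM, above every library of the other 3 populations, whose highest value is 61.7 CPM.

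Genes of the surrounding pathways were read from 6 further lists. With fibroblast and melanoma sums as covariates, no call for CD27+ minus CD11b+ in CD69- cells from these lists was kept, and calls over all genes there dropped from 1304 to 49. High fibroblast sums and the CD27+CD69- population nearly coincide, so the calls lost in that fit cannot be read either way. The log2 differences did not all shrink in that fit: Herpud1 went from -0.60 to -0.85, Vars from 0.90 to 1.48 and Tyms from 1.74 to 2.03, while Gcsh went from 0.87 to 0.70, Nprl2 from -1.06 to -0.85, Slc7a1 from -1.16 to -0.82, Gart from 1.08 to 0.35, Pdia4 from 0.54 to 0.20, Ero1l from 2.82 to 1.03 and Eif4ebp1 from 1.66 to 0.06. Leaving out CD27+CD69- replicates 4, 5 and 6 leaves 3 libraries of that population, and calls over all genes went from 1304 to 871. Of 26 other ATF4 and stress response genes 19 were tested, and 3 were higher in CD27+ than CD11b+ cells among CD69- cells and on average (15.8%, where 7.46% and 7.95% of all genes were higher), with 0 lower: Nupr1, a stress-induced chromatin protein, Ero1l, an oxidase of the endoplasmic reticulum, and Eif4ebp1, a brake on cap-dependent translation. Their list's median log2 difference in CD69- cells was 0.36, beside 0.05 for all genes. Nupr1 was at 0 counts in all 12 CD11b+ libraries and at 21.4 to 171 CPM in CD27+CD69- (edgeR adjusted p = 0.00163 against CD11b+CD69-). Pooled over CD27+CD69- libraries, Nupr1 was 237-fold above a floor of 3 counts over CD11b+CD69-. That figure takes no account of the spread between replicates. In CD27+CD69+ Nupr1 was at 21.2 CPM in replicate 6, the library with 232 CPM of fibroblast RNA, and at 0 in the others, so that Nupr1 had counts only where fibroblast sums were 232 CPM or more. Ero1l was highest in CD27+CD69- replicates 4 and 6, at 598 and 896 CPM. Without CD27+CD69- replicates 4, 5 and 6 the calls of Ero1l and Eif4ebp1 in CD69- cells were lost (log2 0.71 and 0.65, adjusted p = 0.387 and 0.541) and Nupr1 passed. The averaged calls of Ero1l and Eif4ebp1 were lost there too (adjusted p = 0.399 and 0.263). Limma-voom lost Ero1l and Eif4ebp1 in CD69- cells (0.105 and 0.0676) and Ero1l on average (0.176), as did the replicate block for Ero1l on average (0.0502). With the covariates all 3 averaged calls were lost (Nupr1 0.798, Ero1l 0.96, Eif4ebp1 0.987). The part of other cells' RNA in these 3 was not tested. In the other 5 comparisons 0 of 19 passed by edgeR, with 2 to 4 at an unadjusted p below 0.05, while Ero1l or Nupr1 passed for CD69 in CD27+ cells by DESeq2 or limma-voom, and Nupr1 for CD69 averaged by limma-voom. Atf3, a stress-induced repressor, averaged 211 ± 96.3, 106 ± 71.8, 115 ± 61.9 and 83.5 ± 43.6 CPM and did not pass (adjusted p for any difference = 0.144).

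None of the 4 kinases that start the response passed a test. Eif2ak1 averaged 81.8 to 105 CPM, Eif2ak3 12.3 to 22.6 CPM and Eif2ak4, the sensor of uncharged tRNA, 7.24 to 10.0 CPM, with edgeR adjusted p-values for any difference of 0.761, 0.747 and 0.985. Eif2ak2, the sensor of double-stranded RNA, averaged 14.7 ± 9.78, 38.6 ± 8.05, 19.7 ± 10.3 and 28.2 ± 19.9 CPM (adjusted p = 0.192). Every CD11b+CD69+ library of Eif2ak2 was above every CD11b+CD69- library, 31.5 CPM against 30.6 at the nearest, with log2 1.39 and adjusted p = 0.149, in a comparison where 3.19% of all genes did not overlap. Myc, a growth regulator that also drives serine and transporter genes, averaged 172 ± 36.4, 249 ± 38.9, 227 ± 41.9 and 374 ± 109 CPM. Myc was higher in CD69+ cells on average (log2 0.62, adjusted p = 0.00247) and in CD27+ cells on average (log2 0.49, adjusted p = 0.00685). With the marker covariates these values of Myc were 0.39 and 0.85, and both missed the threshold (adjusted p = 0.752 and 0.0803).

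Of 15 genes of the unfolded protein response of the endoplasmic reticulum, all tested, 2 passed in some comparison. In CD69- cells both differed between CD27+ and CD11b+ (13.3%, against 12.4% of all genes), and both passed for any difference, against 14.1% of all genes. The list's median log2 difference for CD27+ minus CD11b+ averaged was -0.12, beside 0.03 for all genes. Herpud1, a partner of the reticulum's protein degradation machinery, was lower in CD27+ cells at both CD69 states (log2 -0.60 and -0.66, edgeR adjusted p = 0.00132 and 0.00244), with no overlap between groups (6.62% and 2.29% of all genes did not overlap), and lower in CD69+ cells on average (-0.40, adjusted p = 0.00706). Its means were 396 ± 55.0, 306 ± 53.5, 260 ± 44.8 and 194 ± 12.0 CPM. Pdia4, a disulfide isomerase, was highest in CD27+CD69-: 345 ± 26.5 CPM against 237 ± 40.6 in CD11b+CD69- (log2 0.54, adjusted p = 0.0059) and 238 ± 47.5 in CD27+CD69+ (-0.54, adjusted p = 0.031). The latter call was lost without CD27+CD69- replicates 4, 5 and 6, at a difference of -0.57 (adjusted p = 0.0744), and with the covariates, at -0.26 (adjusted p = 1.0). Hsp90b1 and Hyou1, chaperones, did not pass for any difference (adjusted p = 0.151 and 0.182). No member passed for CD69 in CD11b+ cells by edgeR, DESeq2 or limma-voom, where 5 had an unadjusted p below 0.05.

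Of 14 other synthetases, all tested, Vars was higher in CD27+ cells among CD69- cells (log2 0.90, edgeR adjusted p = 0.0365), and Vars and Farsb on average (0.61 and 0.44, adjusted p = 0.0412 and 0.0128), with 0 lower (7.14% and 14.3% of the list, where 7.46% and 7.95% of all genes were higher) and an averaged list median of 0.03, the same as over all genes. Limma-voom lost Vars in CD69- cells (0.95, adjusted p = 0.0525), and leaving out CD27+CD69- replicates 4, 5 and 6 lost Farsb (0.35, adjusted p = 0.121). Yars and Qars did not pass (adjusted p for any difference = 0.226 and 0.269). Of 17 other folate and glycine genes 13 were tested, with a median log2 difference of 0.73 for CD27+ minus CD11b+ in CD69- cells, beside 0.05 for all genes. Among CD69- cells Gart, of purine synthesis, Gcsh, of glycine cleavage, and Tyms, of thymidylate synthesis, were higher in CD27+ cells (log2 1.08, 0.87 and 1.74, adjusted p = 0.029, 0.0152 and 0.0386), 3 of 13 where 7.46% of all genes were higher. The groups of Gart and Gcsh did not overlap, which held for 6.62% of all genes. A sum of 8 dividing-cell genes, of which Tyms is itself a part, was 114 to 601 CPM in CD27+CD69- against 74.5 to 160 CPM in CD11b+CD69-. The part of dividing cells in these 3 was not tested, and for Tyms the sum is no separate measure. Gcsh was also higher in CD69+ than CD69- CD11b+ cells (0.86, adjusted p = 0.0473), a call lost with limma-voom (0.84, 0.0674) and without CD27+CD69- replicates 4, 5 and 6 (0.86, 0.0567). Tyms was lost with limma-voom (1.60, 0.115). Without CD27+CD69- replicates 4, 5 and 6, Gart and Gcsh missed the threshold among CD69- cells at differences as large as before (1.26 and 0.87, adjusted p = 0.0592 and 0.0686). Mthfd1 did not pass (adjusted p for any difference = 0.194).

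Of 19 other transporters 13 were tested, and Slc7a1, a carrier of arginine and lysine, was lower in CD27+ cells among CD69- cells (46.7 ± 14.2 CPM in CD11b+CD69-, 21.0 ± 9.90 in CD27+CD69-, log2 -1.16, edgeR adjusted p = 0.0363). This was 1 of 13, where 4.92% of all genes were lower. That call was lost without CD27+CD69- replicates 4, 5 and 6 (-1.36, adjusted p = 0.0967) and in the replicate block fit (-1.08, adjusted p = 0.0804). The list's median there was 0.97, of the opposite sign to Slc7a1, beside 0.05 for all genes. Slc16a10, Slc6a6 and Slc25a15 did not pass for any difference (adjusted p = 0.206, 0.246 and 0.481), though Slc16a10 passed for CD69 in CD11b+ cells by DESeq2 and limma-voom. Of 25 other genes of mTORC1 amino acid sensing 24 were tested, and Nprl2, a subunit of the GATOR1 complex that restrains mTORC1, was lower in CD27+ cells among CD69- cells and on average (log2 -1.06 and -0.66, adjusted p = 0.018 and 0.036), the average being lost with limma-voom and the replicate block (-0.66 in both, adjusted p = 0.0577 and 0.057). This was 1 of 24, where 4.92% and 5.38% of all genes were lower. The list's medians were -0.05 and -0.01, beside 0.05 and 0.03 for all genes. The means of Nprl2 were 124 ± 39.3, 73.6 ± 29.5, 59.5 ± 22.3 and 61.5 ± 12.3 CPM. Rraga, Seh1l and Tsc1 did not pass for any difference (adjusted p = 0.162, 0.339 and 0.34). For CD69 in either CD11b+ or CD27+ cells 0 of the 24 passed by edgeR, DESeq2 or limma-voom, with 1 at an unadjusted p below 0.05 in each.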

How the data were processed

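The authors deposited a table of raw counts per gene for 24 mouse libraries (SMART-Seq v4 cDNA, Nextera XT, per the labels' protocols). The submitters' processing notes name GRCm38, HTSeq and Picard without versions. No strand or molecular identifiers were recorded, so overlapping genes cannot be told apart and counts are of reads, not molecules. Of 53471 entries, 53465 remained after repeats were removed, and 3433 with no symbol held 0.174% of counts.

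All 10536 genes that passed filterByExpr (minimum count 10) were fitted together with edgeR 4.0.16 (quasi-likelihood, TMM factors 0.958 to 1.06, R 4.3.3) as 4 population means. Every adjusted p is Benjamini-Hochberg over all genes tested, at 0.05, from edgeR unless DESeq2 1.42.0 or limma-voom (limma 3.58.1) is named. The fit was tested on simulated counts that gave all genes the same dispersion and set differences only in genes above 10 CPM. That test does not cover genes as sparse and variable as Asns. Other settings were DESeq2 size factors, DESeq2, limma-voom, no filter, a mean of 10 CPM, a replicate block, only the populations compared, marker covariates, thinning and each library left out. Leaving out 3 CD27+CD69- libraries, or that population, was chosen after seeing the data. The fit with marker covariates cannot separate the fibroblast sum from the CD27+CD69- population.

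All 33 members are covered, with Atf4, Myc, 4 kinases and, per pathway list, the 4 genes with the smallest p for any difference. The members and lists were chosen with earlier results of these data known. Positions are GRCm38 (GENCODE M21).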

Additional observations from a re-analysis of the deposited data

Results flagged for a closer look

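The 24 members with a mean of 10 CPM or more gave 96 groups of 6 libraries. In these, 10 values stood far from the other 5 libraries of their population. Chance meets this rule in about 5% of groups where values are normally spread. That rate does not hold for groups mostly at or near 0, such as Asns and Shmt1 in CD11b+CD69-. Asns reached 5.78 CPM in CD11b+CD69- replicate 3, 7.37 CPM in CD11b+CD69+ replicate 1 and 37.6 CPM in CD27+CD69+ replicate 6. Shmt1 reached 11.1 CPM in CD11b+CD69- replicate 3. Mthfd1l reached 64.5 CPM in CD11b+CD69- replicate 2 and 52.8 CPM in CD27+CD69- replicate 6. Slc38a1 reached 217 CPM in CD27+CD69+ replicate 3. In CD11b+CD69-, Cebpg reached 55.0 CPM in replicate 4 and Xpot 50.2 CPM in replicate 1. Sars was low, at 223 CPM, in CD27+CD69+ replicate 2.

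The CD69 difference of Gatsl3 was higher in CD27+ than in CD11b+ cells by 2.07 on the log2 scale (edgeR adjusted p = 0.0153 for the interaction).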

How the results depend on the processing

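Members called for CD27+ minus CD11b+ in CD69- cells numbered 2 and became 1 with limma-voom, no filter, the replicate block, only the 2 populations compared or the 3 melanoma-rich CD27+CD69- libraries left out, and 0 with marker covariates. Averaged over CD69, 5 became 3 with thinning, 2 without those 3 libraries (Ddit3 and Slc38a1) and 0 with covariates. The unequal CD69 difference (1 member) became 0 in both of the latter settings. For any difference, 2 became 4 with DESeq2 and 1 with limma-voom, covariates or those libraries left out. For CD69 averaged, 0 became 1 with limma-voom (Gatsl3). With covariates the averaged CD27+ differences of Gatsl3 and Psat1 turned sign (0.09 and -0.15). The cause was not tested.

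With 1 library left out, members called ran from 1 to 2 (CD69 in CD11b+), 0 to 0 (CD69 in CD27+), 1 to 3 (CD27+ in CD69-), 0 to 0 (CD27+ in CD69+), 1 to 1 (unequal CD69 difference), 0 to 1 (CD69 averaged), 2 to 7 (CD27+ averaged) and 1 to 4 (any difference). The averaged CD27+ count was 2 without CD27+CD69+ replicate 1 or 2, CD11b+CD69- replicate 2 or CD27+CD69- replicate 6.

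Over all genes, calls for CD69 in CD11b+ cells went from 289 to 483 with DESeq2 and 188 without a filter, and in CD27+ cells from 195 to 405 without a filter and 0 with covariates. Covariates took CD27+ in CD69- cells from 1304 to 49, CD69 averaged from 415 to 43, CD27+ averaged from 1405 to 138 and any difference from 1483 to 572, which was 3251 without a filter. CD27+ in CD69+ cells went from 200 to 316 with DESeq2. The unequal CD69 difference went from 61 to 169 with DESeq2, 1 with covariates and 33 without the 3 libraries.

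Replicate numbers gave little sign of pairing. Of 36 same-number pairs 1 correlated above 0.1, and 4 libraries correlated best with their own number. The spread between replicates of a population was 10.3 to 32.3 times sampling noise (chi-square per degree of freedom). Such correlations therefore cannot exclude pairing. Under the replicate block members called were 1, 0, 1, 0, 1, 0, 4 and 2 in the order above. For any difference the block lost Asns (adjusted p = 0.13) and gained Slc3a2 (0.0169), and it lost Asns for CD27+ in CD69- cells and averaged (0.0804 and 0.0998).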
